A study of Mus musculus with 70 samples.

Results

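The expression of 10 effector and surface genes of group 2 innate lymphoid cells (ILC2) was followed through sorted mouse bone marrow progenitors. The genes were Il17rb, Klrg1, Cysltr1, Slc7a8, Rnf128, Arg1, Csf2, Il13, Il5 and Areg, and all 10 were found by Entrez identifier among the 27179 genes counted. Some of them were chosen by their measured rise in ILC2 progenitors (ILC2P) of these same samples, and which ones is not recorded. The levels of all 10 in wild-type ILC2P are therefore given as a description with no test. Each sample held 100 cells sorted by flow cytometry, and transcripts were tagged near the 3′ end by CEL-seq. The sorted populations are listed in the order used here. They were common lymphoid progenitors (CLP), the α4β7+ subset of CLP, common innate lymphoid progenitors (CILP), cells the labels call ILCP, and ILC2P. The knockout genotypes were Tcf7-/- mice (5 CLP, 4 CILP and 2 ILC2P libraries), which lack the transcription factor TCF-1, and Id2-/- mice (2 CLP, 2 CILP and 1 ILCP library), which lack an inhibitor of E proteins. A further genotype label, Nfil (2 libraries each of CLP, CILP and ILC2P), was set aside by the submitters as a knockout that had not succeeded. From wild-type mice there were 8 libraries of CLP, 5 of α4β7+ CLP, 7 of CILP, 3 of ILCP and 8 of ILC2P. Age, strain, sex and the deleted part of each gene are not given in the sources used here. The labels tie ILCP to no sort gate, and the design text names a Sca1+ CILP population and no ILCP. The place of ILCP between CILP and ILC2P is therefore an assumption.

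ILC2 are tissue-resident lymphocytes without rearranged antigen receptors. They sense alarm signals from epithelia, such as interleukin-33 and interleukin-25, and answer with type 2 cytokines that act on eosinophils, mucus-producing epithelium and tissue repair. In the bone marrow they develop through progenitors that lose B and T cell options step by step, and the late progenitor already carries receptors for these alarm signals. Among the genes followed here, Il17rb encodes a subunit of the interleukin-25 receptor, Klrg1 an inhibitory lectin-like receptor, Cysltr1 a receptor for cysteinyl leukotrienes and Slc7a8 a transporter of large neutral amino acids. Arg1 encodes arginase 1, which degrades arginine, and Rnf128 the E3 ubiquitin ligase GRAIL. Csf2 encodes the growth factor GM-CSF, Il13 and Il5 the interleukins for which ILC2 are best known, and Areg the epidermal growth factor receptor ligand amphiregulin.

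The 10 genes lie on 6 chromosomes in the mouse build GRCm38.p6 (RefSeq gene bounds). Il17rb (chr14:29996168-30008896) and Slc7a8 (chr14:54722215-54781886) share chromosome 14. Rnf128 (chrX:139563340-139673145) and Cysltr1 (chrX:106576509-106603679) are X-linked. Il13 (chr11:53631323-53634702), Il5 (chr11:53720794-53725103) and Csf2 (chr11:54247270-54249899) belong to the cytokine gene cluster of chromosome 11. Arg1 (chr10:24915207-24927470), Klrg1 (chr6:122270596-122282833) and Areg (chr5:91139599-91148432) lie apart. The annotation places the noncoding genes Gm40616 over Arg1, Gm12223 over Csf2 and Gm24622 over Cysltr1, none of which is in the count tables. It also places Gm5127 over Cysltr1, with 15 counts in all against 456 for Cysltr1. Whether counting used strand is not stated, so reads of such a partner cannot be told apart from those of the gene.

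Total counts on genes ranged from 19322 to 624668 over the 47 wild-type, Tcf7-/- and Id2-/- libraries (median 134985), and wild-type ILC2P was the shallowest wild-type group (19322 to 80873). Values are in CPM, counts per 1000000 of the library total corrected by its TMM factor, and errors are SDs over libraries. A gene was called at an edgeR adjusted p under 0.05. A gene with 0 counts over all wild-type ILC2P libraries could still stand at up to 5.62 CPM. No label says that replicates came from separate mice, so p-values measure a spread between libraries that may be technical. Because every library is bulk RNA of 100 cells, fewer cells of a type and less RNA per cell cannot be told apart. In 12 control wells without cells, 1 well held counts of any of the 10 genes (11 of Rnf128 and 1 each of Arg1 and Areg among 6936). Libraries came from 2 batches, with every Id2-/- library in batch 1 and every Tcf7-/- ILC2P and Nfil library in batch 2. The targeted genes kept some counts. Tcf7 stood at 30.7 ± 25.9 CPM in Tcf7-/- CILP and 438.5 ± 249.2 in wild-type CILP (edgeR adjusted p = 0.157). Id2 stood at 70.9 ± 62.4 CPM in Id2-/- CILP and 904.6 ± 757.7 in wild-type CILP (edgeR adjusted p = 0.595). Of 6 ILC2P markers, 5 had counts in all 8 wild-type libraries labelled ILC2P, namely Il1rl1 (the interleukin-33 receptor, 264.4 to 1692 CPM), Gata3 (266.7 to 6330), Il2ra (133.4 to 820.7), Ly6a (299.9 to 1690) and Icos (173.9 to 1157). The sixth, Rora, was near absent there, at 4 counts in all (median 0 CPM, highest library 47.2). These 6 took 0.337% to 0.83% of counts in ILCP, 0.295% to 0.977% in ILC2P and 0.117% to 0.441% in CILP. A list of 7 CILP markers took 0.0666% to 0.216% in ILCP, 0.0466% to 0.334% in ILC2P and 0.194% to 0.523% in CILP. Zbtb16, of that list, stood at 0 to 102.6 CPM in ILCP, 0 to 33.3 in ILC2P and 183.7 to 517.7 in CILP.

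Across wild-type populations the 10 genes followed 3 courses. Il17rb and Arg1 were present by the CILP stage. Rnf128, Cysltr1, Slc7a8, Klrg1 and Csf2 were at or near 0 up to CILP, with Cysltr1 in CLP replicate 2 (82.4 CPM) and Rnf128 in CLP replicate 1 (38 CPM) as the highest exceptions, and were present in ILCP and ILC2P. Il13, Il5 and Areg stayed low or absent in most libraries of every population.

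**Figure D1:**
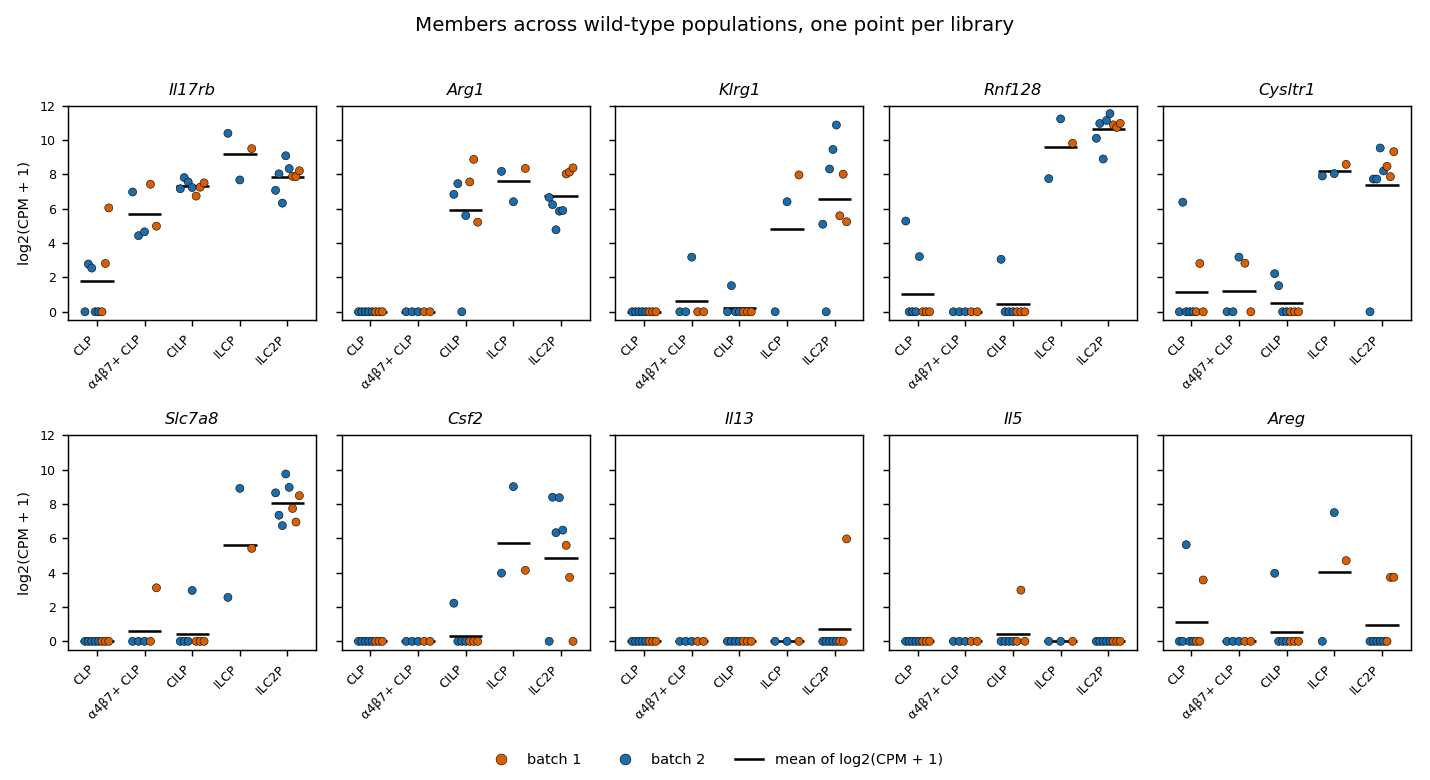
Expression of the 10 genes in wild-type libraries, as log2(CPM + 1) on the vertical axis, by population on the horizontal axis; each point is a library, coloured by batch, and bars mark the mean of the plotted values. Il17rb and Arg1 have counts in CILP, Rnf128 climbs to 1174 and 1801 CPM on average in ILCP and ILC2P, and Il5 has a count in 1 CILP library only.

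Il17rb was already present in α4β7+ CLP. It stood at 0 to 65.3 CPM in CLP (median 2.42, n = 8), and at 124.8, 20.6, 24.2, 171.1 and 30.7 CPM in the 5 α4β7+ CLP libraries. In CILP it stood at 105.7 to 224.2 CPM (median 151.9, n = 7), every library above every CLP library. The mean was 163.2 ± 38 CPM in CILP against 10.3 ± 22.4 in CLP, a 15.8-fold difference (fitted log2 fold change 4.17, edgeR adjusted p = 0.000581). Within batch 2 alone the difference passed (log2 5.75, edgeR adjusted p = 0.0031), while within batch 1 alone it did not (2.71, 0.204). Against α4β7+ CLP the CILP libraries overlapped, at a 2.2-fold higher mean that did not pass (log2 1.21, edgeR adjusted p = 0.587). α4β7+ CLP themselves held counts in 5 of 5 libraries, but their 7.21-fold higher mean than CLP did not pass either (log2 2.96, edgeR adjusted p = 0.222). Without CLP replicate 8, the CLP library with most Il17rb, it did (log2 4.37, edgeR adjusted p = 0.0379).

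Arg1 was at 0 in all 8 CLP and all 5 α4β7+ CLP libraries. In CILP its values were widely spread, from 0 to 469.4 CPM (median 113.4), with counts in 6 of 7 libraries. The mean of 147.2 ± 158.8 CPM in CILP was at least 55.3-fold higher than in CLP (edgeR adjusted p = 2.46e-05) and at least 54.1-fold higher than in α4β7+ CLP (edgeR adjusted p = 0.000634), both against 3 counts over all libraries of the earlier population. CILP replicate 3 had no Arg1, so the groups touch at 0. The rise over CLP passed within batch 1 (edgeR adjusted p = 0.000514) and within batch 2 (0.031). The rise over α4β7+ CLP passed within batch 1 (0.00288) and not within batch 2 (0.189).

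Il17rb and Arg1 were the 2 of 10 genes called in CILP against CLP, where 4.31% of all genes tested were called (2.34% called higher). Arg1 was the 1 of 10 called in CILP against α4β7+ CLP, where 2.35% were called (0.911% called higher), and 0 of 10 were called in α4β7+ CLP against CLP, where 0.0456% were (831 genes had an unadjusted p under 0.05, and DESeq2 and limma-voom also called 0 of 10). Of the 10, 8 had enough counts to be tested, and Il13 and Il5 did not. In a wider list of 40 group 2 ILC genes, 30 were tested and 9 rose and 2 fell in CILP against CLP. The list's median log2 fold change was 1.06, against 0.065 over all genes. From it, 2 genes are named here after their values were seen. Bcl11b, a transcription factor that ILC2 need, stood at 510.1 ± 234.3 CPM in CILP and 0.735 ± 2.08 in CLP, and the nuclear receptor gene Rora at 183.6 ± 142 CPM in CILP and at 0 in CLP. Both rose, Bcl11b with an edgeR adjusted p = 6.54e-13 and Rora with 6.16e-05. Rora was lower in the later populations, at 62.1 ± 76.2 CPM in ILCP and 5.9 ± 16.7 in ILC2P.

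The promoter of Il17rb is shown because Il17rb alone of the 10 genes had counts in every α4β7+ CLP library. It is the 250 bases before the annotated start on the minus strand, chr14:30008897-30009146 in GRCm38.p6, from RefSeq, written 5′ to 3′. Capitals mark E boxes (CANNTG, the site of E proteins) and an AP-1 site (TGANTCA).
Il17rb: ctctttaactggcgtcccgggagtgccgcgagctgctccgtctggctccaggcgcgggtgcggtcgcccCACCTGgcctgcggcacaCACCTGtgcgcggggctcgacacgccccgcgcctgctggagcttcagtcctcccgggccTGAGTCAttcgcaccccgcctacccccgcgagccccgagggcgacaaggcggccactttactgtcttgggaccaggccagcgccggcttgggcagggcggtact
It holds 2 E boxes and 1 AP-1 site, and neither a GATA site (AGATAA or TGATAA) nor a TCF-1 and LEF-1 site (CTTTGAT). Searched on both strands of the same window in 32851 promoters, an E box was present in 66.2%, the AP-1 site in 6.75%, either GATA site in 16.6% and CTTTGAT in 3.21%. These letter matches describe the sequence and say nothing about binding.

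Most of the other genes were higher in ILCP than in CILP, which is taken here as the next step. In ILCP (n = 3) against CILP (n = 7), 5 of 10 were called, all higher in ILCP, where 0.374% of all genes tested were called (0.31% called higher). Choosing genes by a rise in wild-type ILC2P can favour genes that are low in these same CILP libraries. The count of 5 is therefore not independent of that choice. The wild-type ILC2P libraries also entered the gene filter and the estimate of spread of this fit. Rnf128 stood at 215, 2408 and 898.9 CPM in the ILCP libraries. In CILP it had 2 counts in all, both in replicate 1 (7.32 CPM), so every ILCP library lay above every CILP library. Pooled over libraries the ratio was 591.7, with an exact 95% interval of 162.6 to 4905 that covers counting error only (fitted log2 fold change 9.02, edgeR adjusted p = 2.32e-13). Within batch 1 and within batch 2 alone Rnf128 also passed (edgeR adjusted p = 5.31e-11 and 2.17e-06).

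Cysltr1 was the most even of the 5, at 239.4, 263.6 and 382.9 CPM in ILCP against 0 to 3.66 CPM in CILP (median 0). The groups did not overlap, and the pooled ratio was 196.1 (interval 53.1 to 1638, log2 7.18, edgeR adjusted p = 0.00012). Rnf128 and Cysltr1 were called in each of the 10 fits that left out 1 library of either group. Cysltr1 passed within batch 1 (edgeR adjusted p = 0.0132) and not within batch 2 (0.125).

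Klrg1, Slc7a8 and Csf2 rested on fewer libraries. In a fit of ILCP and CILP alone these genes had too few counts to be tested. Their place in the main fit thus depended on its wider set of libraries. Klrg1 stood at 0, 83.9 and 249.7 CPM in ILCP against 1 count over all 7 CILP libraries (1.87 CPM in replicate 2, pooled ratio 124.0, interval 20.9 to 5030, log2 6.79, edgeR adjusted p = 0.00364). ILCP replicate 1 had none, so the groups overlap at 0, and the call was lost without ILCP replicate 3 (log2 4.5, edgeR adjusted p = 0.205) and in DESeq2 (adjusted p = 0.387). Slc7a8 stood at 4.89, 479.2 and 41.6 CPM in ILCP against 1 count in CILP replicate 4 (6.8 CPM, pooled ratio 154.2, interval 26.3 to 6221, log2 6.58, edgeR adjusted p = 0.00364). ILCP replicate 1 lay under that CILP library. Csf2 stood at 14.7, 515.2 and 16.6 CPM in ILCP against 1 count in CILP replicate 1 (3.66 CPM, pooled ratio 160.9, interval 27.5 to 6486, log2 6.65, edgeR adjusted p = 0.0216). All 3 ILCP libraries lay above it, but replicate 2 was far above the other 2. Without ILCP replicate 2 neither Slc7a8 (log2 3.9, edgeR adjusted p = 0.571) nor Csf2 (3.83, 0.655) passed. Csf2 was also lost without CILP replicate 2, 3 or 4 (0.0583 to 0.0819) and in limma-voom (adjusted p = 0.0523).

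Within batches Klrg1 (edgeR adjusted p = 0.246 in batch 1 and 0.638 in batch 2) and Slc7a8 (0.638 and 0.096) missed the threshold. Csf2 missed it in batch 2 (0.138) and had too few counts to be tested in batch 1, which holds a single ILCP library. ILCP replicate 2, in which Rnf128, Slc7a8 and Csf2 were highest, also held the largest share of immediate early genes, 4.47% of its counts, against 0.417% and 1.21% in ILCP replicates 1 and 3 and 0.201% to 0.613% in CILP. In ILCP 14 of the 17 immediate early genes had counts. ILCP replicate 1 held erythroid markers at 1.16% of its counts, and replicates 2 and 3 held 0. The part of either marker list in these values was not tested.

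Il17rb, Arg1 and Areg did not pass in ILCP against CILP. Il17rb stood at 1344, 203.7 and 724.2 CPM in ILCP, a 4.64-fold higher mean than in CILP (log2 2.23, edgeR adjusted p = 0.335). Only ILCP replicate 2 lay within the CILP range. Arg1 stood at 288.2, 83.9 and 324.6 CPM in ILCP, all inside the CILP range (log2 0.93, edgeR adjusted p = 0.824). Areg stood at 0, 179.7 and 25 CPM in ILCP, against 4 counts in 1 CILP library (log2 4.35, edgeR adjusted p = 0.373). ILCP replicate 2 was thus the lowest of the 3 for Il17rb and Arg1 and the highest for Rnf128, Slc7a8, Csf2 and Areg. In the wider list of 40, 3 of 30 tested rose at this step and 0 fell, with a median log2 fold change of 0.457 against -0.273 over all genes. The 3 were Il1rl1 (1091 ± 719.1 CPM in ILCP against 0.972 ± 2.57 in CILP), Il2ra, the interleukin-2 receptor α chain (325.8 ± 127.8 against 1.05 ± 2.77) and Ly6a (622.7 ± 383.4 against 7.2 ± 9.38), with edgeR adjusted p = 5.77e-12, 1.1e-05 and 1.39e-05. Ly6a encodes Sca-1, which the design text names as a sort marker of a CILP population, so where the gate used it the rise is no finding.

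The promoters of Rnf128, Slc7a8 and Csf2 are shown because these genes rose at the same step and were all highest in the same ILCP library. Each is the 250 bases before the annotated start in GRCm38.p6, from RefSeq, 5′ to 3′: chrX:139610370-139610619 on the plus strand for Rnf128, and chr14:54781887-54782136 and chr11:54249900-54250149 on the minus strand for Slc7a8 and Csf2. The window of Rnf128 lies inside the gene bounds given above, before an internal annotated start and not before the first base of the gene. Capitals mark E boxes (CANNTG) and a GATA site (AGATAA).
Rnf128: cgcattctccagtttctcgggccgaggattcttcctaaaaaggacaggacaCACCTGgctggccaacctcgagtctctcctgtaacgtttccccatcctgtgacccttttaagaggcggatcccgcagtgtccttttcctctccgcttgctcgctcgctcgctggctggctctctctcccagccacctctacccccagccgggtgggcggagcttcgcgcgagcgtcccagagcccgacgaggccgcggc
Slc7a8: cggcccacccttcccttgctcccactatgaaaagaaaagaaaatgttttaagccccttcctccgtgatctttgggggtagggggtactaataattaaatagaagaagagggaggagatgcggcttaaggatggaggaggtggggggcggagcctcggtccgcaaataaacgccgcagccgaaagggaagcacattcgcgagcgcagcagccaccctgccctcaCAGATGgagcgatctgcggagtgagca
Csf2: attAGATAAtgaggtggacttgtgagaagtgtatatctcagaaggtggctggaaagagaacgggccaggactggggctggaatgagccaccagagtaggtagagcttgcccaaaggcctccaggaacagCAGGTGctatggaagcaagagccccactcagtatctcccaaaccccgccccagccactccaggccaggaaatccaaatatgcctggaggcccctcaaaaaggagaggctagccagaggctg
Each holds 1 E box, at positions -199, -27 and -121 from the start of Rnf128, Slc7a8 and Csf2, as 66.2% of promoters do. Csf2 alone of the 3 holds a GATA site, at -247, and none holds CTTTGAT or TGANTCA. The 25 bases that follow the Csf2 window were found in no Csf2 transcript of the GENCODE annotation. Its start, and the positions counted from it, are therefore less certain. The windows share no motif of this set beyond the E box. In the other matched promoters, not printed here, Il13 holds AGATAA at -81, Il5 CTTTGAT at -242 and Areg E boxes at -112 and -20. RefSeq promoters matched 7 of the 10 genes, and Arg1, Klrg1 and Cysltr1 are named only.

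In wild-type ILC2P (n = 8) Rnf128 stood at 475.9 to 2981 CPM (median 1945), above every CLP, α4β7+ CLP and CILP library. Slc7a8 stood at 105.8 to 856.9 CPM (median 284.7), likewise above every library of those 3 populations. Cysltr1 stood at 0 to 742.7 CPM (median 263.2), with counts in 7 of 8 libraries. Replicate 1, the library without Cysltr1, lacked Csf2 too. Klrg1 varied most, at 0 to 1880 CPM (median 152.2), again with counts in 7 of 8, and replicate 5 held the highest value. Csf2 stood at 0 to 335.4 CPM (median 63.3), with counts in 6 of 8. Against CLP the mean was 311.1-fold higher in ILC2P for Rnf128, 30.5-fold for Cysltr1 and 25.5-fold for Il17rb, and at least 153.8-fold for Klrg1, 127.6-fold for Slc7a8, 55.9-fold for Arg1 and 41.9-fold for Csf2, which were at 0 in CLP. Rnf128, Slc7a8, Cysltr1, Klrg1 and Il13 had their highest wild-type mean in ILC2P, and Il17rb, Arg1, Csf2 and Areg had theirs in ILCP.

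The difference between ILC2P and ILCP had no common direction, but the libraries of both populations overlapped for each gene with counts in them. Il17rb averaged 262.9 ± 138.9 CPM in ILC2P and 757.1 ± 570.6 in ILCP, and Csf2 111.4 ± 140.2 in ILC2P and 182.2 ± 288.4 in ILCP. Slc7a8 averaged 339.4 ± 252.6 CPM in ILC2P and 175.2 ± 263.9 in ILCP, and Klrg1 409 ± 638.9 in ILC2P and 111.2 ± 127.1 in ILCP. Rnf128 (1801 ± 750.9 against 1174 ± 1122) and Cysltr1 (335.7 ± 243.3 against 295.3 ± 76.8) lay closest. Each of these differences was smaller than the larger SD of its pair. Arg1 in ILC2P split by batch, with 259.8, 281.7 and 332.2 CPM in the 3 libraries of batch 1 and 26.4 to 100 CPM (median 58.7) in the 5 of batch 2. The batches did not overlap. Among the other 6 genes with counts in at least 6 ILC2P libraries, none was split in this way.

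**Figure D2:**
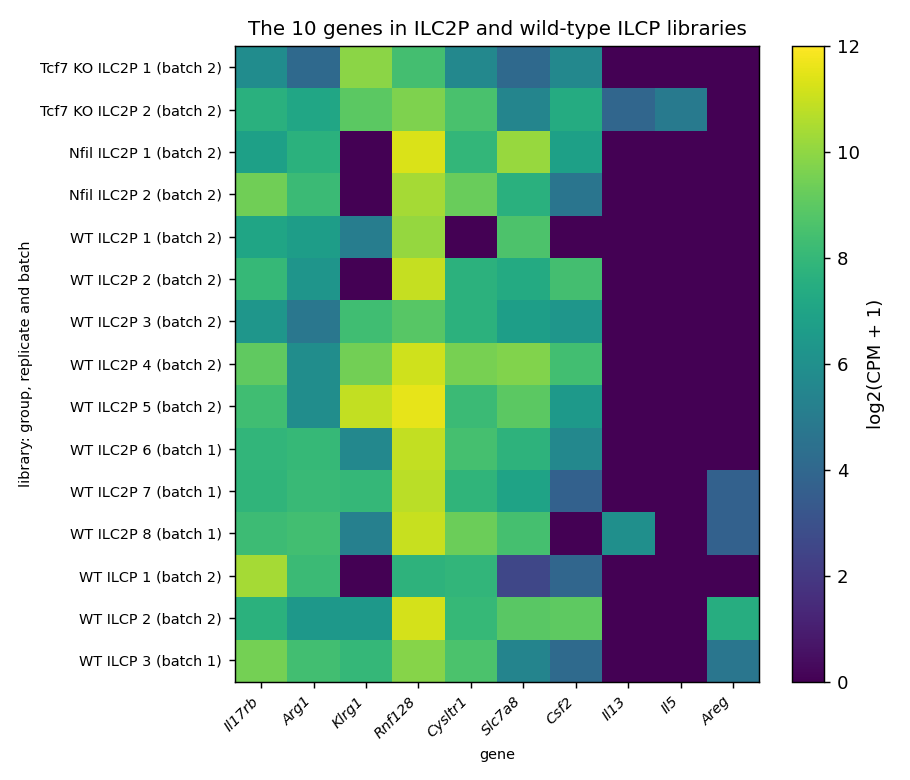
Expression of the 10 genes, in columns, in each ILC2P library and each wild-type ILCP library, in rows with group, replicate and batch, as log2(CPM + 1) by colour. Rnf128 is bright in every row, Klrg1 ranges from 0 to 1880 CPM among wild-type ILC2P, and Il13, Il5 and Areg are dark in most rows. Nfil rows carry TMM factors from a separate fit.

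The type 2 cytokine genes had very few counts. Il13 had 5 counts in ILC2P replicate 8 (61.5 CPM) and none in the other 30 wild-type libraries. Il5 had 0 counts in all wild-type ILC2P and ILCP libraries and 1 count in CILP replicate 6. Csf2, of the same gene cluster, had counts in all 3 ILCP and 6 of 8 ILC2P libraries. Areg had 1 count each in ILC2P replicates 7 and 8 (12.2 and 12.3 CPM), and 10 counts in CLP replicate 3 (48.4 CPM). With 0 counts at this depth, Il5 could still stand at up to 5.62 CPM in ILC2P.

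Among genes outside the set, 8 followed its course most closely by the Pearson r of group means of log2(CPM + 1) with the mean standardized profile of the set, over 11 groups. Candidates needed at least 20 CPM on average in wild-type ILC2P. They were Ptpn13 (r = 0.986), Pparg (0.976), Tktl1 (0.976), Il9r (0.972), P4ha2 (0.969), Flrt2 (0.967), Bmp2 (0.96) and Wdfy2 (0.958). Pparg, a lipid-sensing nuclear receptor known from ILC2, was at 0 in CLP, α4β7+ CLP and CILP and at 36.6 and 47 CPM on average in ILCP and ILC2P. Il9r, the interleukin-9 receptor, averaged 2.96 CPM in CILP, 12.7 in ILCP and 57.3 in ILC2P. The points share libraries, batch and depth with the set, so r is a description. Within the set, the genes lying closest to its mean profile were Csf2 (r = 0.971), Cysltr1 (0.964) and Klrg1 (0.958), and Areg lay farthest among those tested (0.437), where each gene is itself part of the profile.

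Knockout libraries show the genes without TCF-1 or Id2. At the CILP stage both genotypes lacked Il17rb and Arg1 in most libraries. Arg1 was at 0 in all 4 Tcf7-/- CILP libraries, against 113.4, 175.6, 0, 47.6, 188, 469.4 and 36.2 CPM in the 7 wild-type CILP libraries. It was at least 24.9-fold lower (edgeR adjusted p = 0.037), although wild-type replicate 3 was at 0 too. It was the 1 of 10 genes called, where 0.501% of genes tested were called (0.082% called lower). The call was lost in 8 of 11 fits that left out 1 library (adjusted p up to 0.0996), without any of the 4 Tcf7-/- libraries or wild-type replicate 1, 2, 4 or 6. It was also lost without the batch term (0.0502) and within batch 1 (0.0619) and batch 2 (0.898).

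Il17rb stood at 0, 103.2, 0 and 0 CPM in Tcf7-/- CILP and at 105.7 to 224.2 CPM in wild-type CILP. The 4 knockout libraries all lay below the 7 wild-type ones, Tcf7-/- replicate 2 just so. Yet the mean of 25.8 ± 51.6 CPM in Tcf7-/- against 163.2 ± 38 in wild-type CILP (ratio 0.158) did not pass (log2 -2.16, edgeR adjusted p = 0.377). It passed without Tcf7-/- replicate 2 (log2 -7.92, edgeR adjusted p = 0.0359) and in limma-voom (adjusted p = 0.00144). Rnf128 had 19.7, 12.5, 12.6 and 0 CPM in Tcf7-/- CILP, 6 counts in all, against 2 counts over the wild-type CILP libraries, and did not pass (pooled ratio 8.1, interval 1.45 to 82.1, log2 2.49, edgeR adjusted p = 0.331). Tcf7-/- CILP replicates 1 and 4 held myeloid markers at 1.1% and 1.12% of counts and erythroid markers at 1.31% and 3.5%, against at most 0.158% and 0.0911% in wild-type CILP. Arg1 was 0 both in these 2 libraries and in replicates 2 and 3, where myeloid markers took 0.0973% and 0% of counts and erythroid markers 0.155% and 0.0298%. CILP markers, a list of 7 that includes Tcf7 and Id2, took 0.0851% to 0.473% of counts in Tcf7-/- CILP and 0.194% to 0.523% in wild-type CILP. The part of these marker lists in the Arg1 and Il17rb values was not tested. Bcl11b and Il1rl1, of the wider list, are named after their values were seen. Bcl11b fell to 7.04 ± 14.1 CPM in Tcf7-/- CILP, against 510.1 ± 234.3 in wild-type CILP (edgeR adjusted p = 0.000446). Il1rl1 was called higher, at 36.3 ± 68.4 CPM against 0.972 ± 2.57 (edgeR adjusted p = 0.0492). Its Tcf7-/- CILP value rested on 13 counts, with a median of 3.13 CPM and 138.8 CPM in the highest library.

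In both Id2-/- CILP libraries Il17rb and Arg1 had 0 counts, below every wild-type CILP library for Il17rb and level with wild-type replicate 3 for Arg1. Il17rb was at least 21.2-fold lower than in wild-type CILP (edgeR adjusted p = 0.0825) and Arg1 at least 19.1-fold lower (0.14). Neither passed, and 0 of 10 genes were called in edgeR, where 0.0911% of genes tested were (687 had an unadjusted p under 0.05). DESeq2 and limma-voom called both genes (adjusted p = 0.00579 and 2.54e-08 for Il17rb, 0.0141 and 5.19e-08 for Arg1). So did edgeR within batch 1, which holds all Id2-/- libraries (0.00608 and 0.00534). The number of genes called over the whole table also differed widely between the alternatives, and its range is given below. Slc7a8 had 3 counts in Id2-/- CILP replicate 2 (13.4 CPM), and the other 7 genes had none in either library. Il1rl1, the other alarm receptor gene, named after its values were seen, stood between 151.5 and 199.7 CPM in Id2-/- CILP against 0.972 ± 2.57 in wild-type CILP, and was called higher (log2 6.11, edgeR adjusted p = 0.000846). Mast cell, basophil and eosinophil markers took 0.681% and 0.386% of counts in Id2-/- CILP and 0.00473% to 0.515% in wild-type CILP, where replicate 5 held the most. The basophil protease gene Mcpt8 stood between 1524 and 3177 CPM in Id2-/- CILP and at 0 to 3548 CPM in wild-type CILP (median 0). Cpa3 stood at 387.3 to 441.3 CPM in Id2-/- CILP, within the wild-type CILP range of 36.2 to 605.5. Of the 13 genes of the list, 8 had counts in Id2-/- CILP and 7 in wild-type CILP. Tpsb2, Tpsab1, Mcpt4, Prg2 and Epx were at 0 in both. Erythroid markers took 0.223% and 0.193% of counts in Id2-/- CILP, above every wild-type CILP library (at most 0.0911%). CILP markers took 0.0992% and 0.0718% in Id2-/- CILP, below every wild-type CILP library (0.194% to 0.523%). That list includes Id2, the deleted gene. Zbtb16 and Tcf7, also of the list, stood at 22.3 to 54.5 and 24.2 to 66.9 CPM in Id2-/- CILP. In wild-type CILP they stood at 183.7 to 517.7 and 164.5 to 767.9 CPM. Values of the list's other genes are not given here. The part of these marker lists in the Il17rb, Arg1 and Il1rl1 values was not tested. Il1rl1 was the 1 of 30 genes of the wider list called, and the list's median log2 fold change was -1.24 against -0.154 over all genes.

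**Figure D3:**
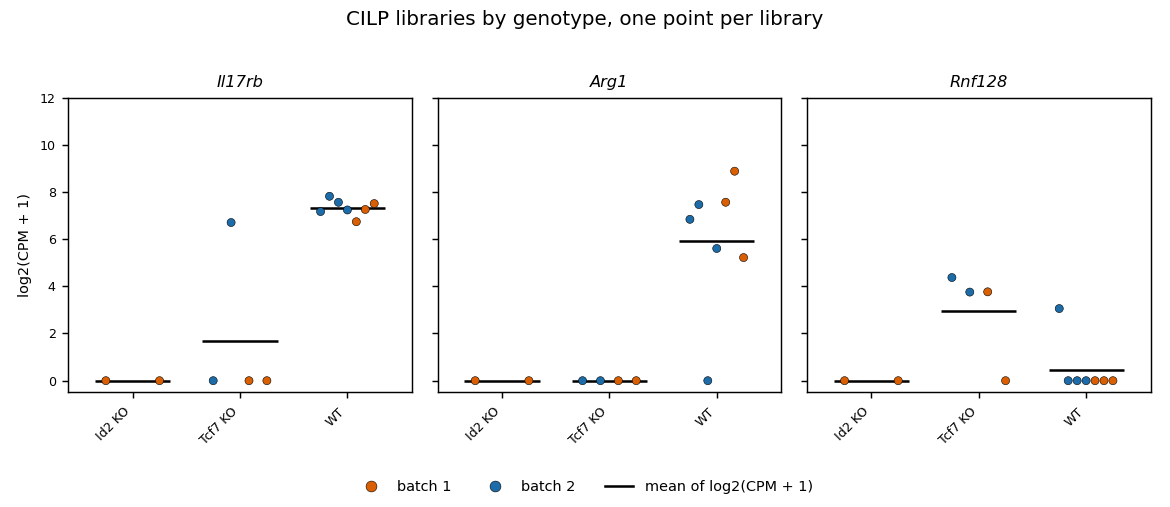
Il17rb, Arg1 and Rnf128 in CILP libraries as log2(CPM + 1) on the vertical axis, by genotype on the horizontal axis, Id2-/- and Tcf7-/- left of wild type; each point is a library and bars mark the mean of the plotted values. Arg1 is at 0 in all 6 knockout libraries and in 1 of 7 wild-type libraries, and Il17rb is above 0 in 1 knockout library, at 103.2 CPM.

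In CLP no difference passed for any of the 10 genes in either knockout. Tcf7-/- CLP held Il17rb at 0, 0, 0, 42.4 and 98.2 CPM, against 0 to 65.3 CPM in wild-type CLP, with no settled direction (fitted log2 1.54, and -2.06 in batch 2 alone), and 0 of 10 genes passed. No gene of the whole table did in edgeR (0%), with 713 of 10972 at an unadjusted p under 0.05, 1 called by DESeq2 and 8 by limma-voom, none of them of the 10. Id2-/- CLP held Il17rb at 6.8 and 27.4 CPM, within the wild-type range, and 0 of 10 passed, where 0.0365% of genes tested did (348 had an unadjusted p under 0.05, and DESeq2 called 0 of 10). The knockout effect on Il17rb in CILP minus that in CLP, a comparison added after the data were seen, was -3.7 on the log2 scale for Tcf7 (edgeR adjusted p = 0.315) and -8.66 for Id2 (0.374). No difference between the 2 stages was thus called for either genotype. The single Id2-/- ILCP library held Il17rb at 92 CPM and Arg1 at 36.8 CPM and none of the other 8, and it has no replicate. Its Gata3 and Il1rl1 stood at 9.2 and 18.4 CPM, and myeloid and erythroid markers took 1.51% and 1.79% of its counts.

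Tcf7-/- ILC2P (n = 2) show the late genes in cells sorted as ILC2P from Tcf7-/- mice. Because some of the 10 were chosen for being high in the wild-type ILC2P libraries (n = 8), the choice itself can make other libraries look lower, and the values of both are given with no test. Slc7a8 stood at 16 and 43.3 CPM in Tcf7-/- ILC2P and at 105.8 to 856.9 CPM in wild-type ILC2P, where the groups did not overlap. The share of all genes with such a gap was not computed, so the gap is a description. Rnf128 stood at 336.7 and 812.2 CPM in Tcf7-/- ILC2P and at 475.9 to 2981 CPM in wild-type ILC2P, with an overlap. Klrg1 stood at 977.9 and 509.5 CPM in Tcf7-/- ILC2P, within the wild-type range of 0 to 1880 CPM. Cysltr1 (48.1 and 374.9 CPM), Csf2 (48.1 and 168.2), Il17rb (56.1 and 192.2) and Arg1 (16 and 134.6) in Tcf7-/- ILC2P had at least 1 value within the wild-type range.

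The Tcf7-/- ILC2P libraries were the deepest of the ILC2P groups (248697 and 252100 counts), and replicate 2 alone held Il5, at 6 counts (28.8 CPM), and Il13, at 3 counts (14.4 CPM). Il5 was at 0 over 458090 counts in wild-type ILC2P. Replicate 1 held B and plasma cell markers at 4.52% of counts and myeloid markers at 0.908%, and replicate 2 held 0.0322% and 0.0129%. Replicate 1 was the lower of the 2 for 6 of the 7 other genes detected, and the higher for Klrg1. Immediate early genes took 0.215% and 0.222% of counts in Tcf7-/- ILC2P and 0.192% to 3.29% in wild-type ILC2P (median 1.31%). The part of these marker lists in the values was not tested. Tcf7 itself gave no check of the genotype here, at 26.4 ± 37.4 CPM in Tcf7-/- and 17.9 ± 26.9 CPM in wild-type ILC2P.

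**Figure D4:**
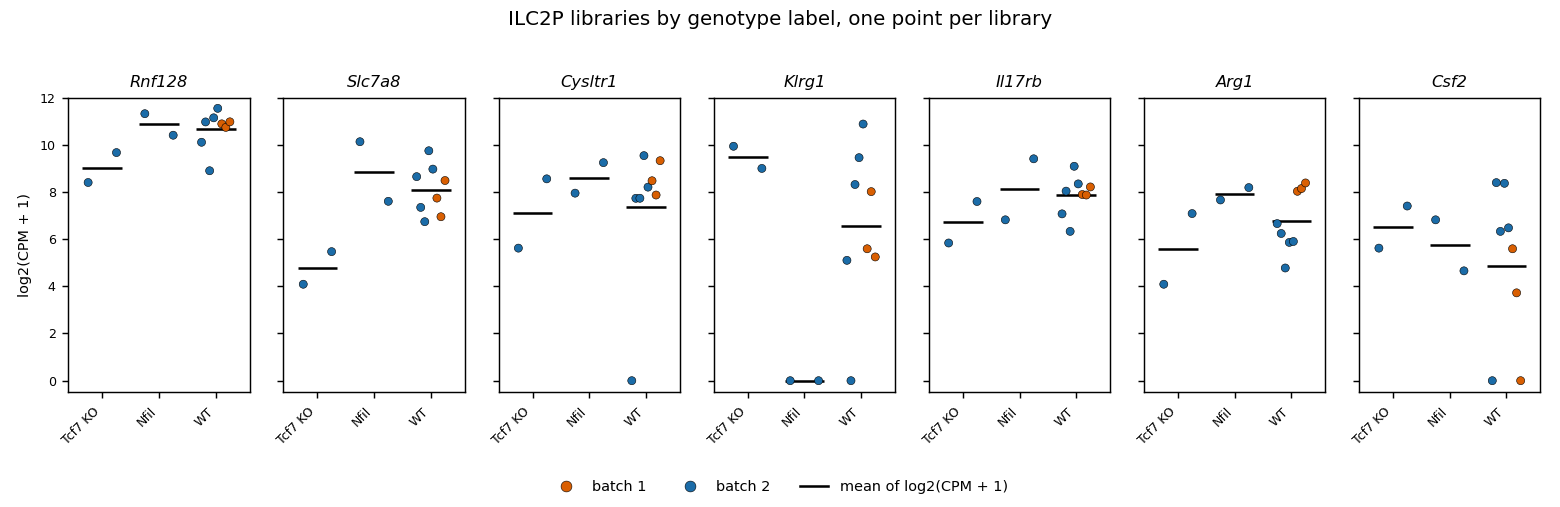
Expression of 7 genes in ILC2P libraries as log2(CPM + 1) on the vertical axis, by genotype label on the horizontal axis, Tcf7-/- and Nfil left of wild type; each point is a library and bars mark the mean of the plotted values. Both Tcf7-/- libraries lie below all 8 wild-type libraries for Slc7a8, and Klrg1 is at 0 in both Nfil libraries. Some genes were chosen for being high in these wild-type libraries, which favours lower values elsewhere, so no test is given. Nfil values carry TMM factors from a separate fit.

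Within the Tcf7-/- genotype the same step could be read from values other than those of wild-type ILC2P. The fit itself still held the wild-type ILC2P libraries, which entered its gene filter and its estimate of spread. The fit of the 2 groups alone, given below, left them out. Against Tcf7-/- CILP (n = 4), 2 of 10 genes were called in Tcf7-/- ILC2P (n = 2), both higher, where 0.0456% of genes tested were. Rnf128 again stood at 336.7 and 812.2 CPM in Tcf7-/- ILC2P, against 19.7, 12.5, 12.6 and 0 CPM in Tcf7-/- CILP, with no overlap (51.3-fold, log2 5.37, edgeR adjusted p = 0.00319). Klrg1 stood at 977.9 and 509.5 CPM against 0 in all 4 CILP libraries, and was at least 125.6-fold higher (edgeR adjusted p = 0.0249). The Klrg1 call was lost in 5 of 6 fits that left out 1 library (adjusted p up to 0.206). Without Tcf7-/- CILP replicate 2 neither gene passed (0.0754 for Rnf128). Rnf128 also missed without ILC2P replicate 2 (0.0853), with only 1 ILC2P library left. Both calls were also lost in batch 2 alone (edgeR adjusted p = 0.633 for Rnf128 and 0.471 for Klrg1) and in a fit of the 2 groups alone (0.86 and 0.0791). Klrg1 was lost in DESeq2 (adjusted p = 0.373) and with DESeq2 size factors (0.0531), while limma-voom kept both and called Cysltr1 too (adjusted p = 0.0485). Slc7a8, by contrast, stood at 16 and 43.3 CPM in Tcf7-/- ILC2P against 0, 21.9, 0 and 0 in Tcf7-/- CILP, with an overlap (log2 1.53, edgeR adjusted p = 0.797).

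The Nfil libraries were a further set of values outside wild-type ILC2P, although their fit held the wild-type ILC2P libraries of batch 2. Nfil CPM use TMM factors of this batch 2 fit, so they are not on quite the same scale as the other CPM. Wild-type ILC2P replicate 1 had a factor of 1.3253 in this fit and 1.5523 in the fit of the other comparisons. Rnf128 stood at 2548 and 1353 CPM in Nfil ILC2P, Slc7a8 at 1118 and 193.3, Cysltr1 at 245.9 and 604, Il17rb at 111.8 and 676.5 and Arg1 at 201.2 and 289.9. Csf2 stood at 111.8 and 24.2 CPM, and Klrg1 had 0 counts in both. Thus 6 of these 7 genes had counts in both libraries, while Nfil CLP held only 4 counts of Il17rb and 1 of Arg1. Against Nfil CLP, Rnf128 was at least 166.7-fold higher (edgeR adjusted p = 0.00116). It was the 1 of 10 called, where 0.154% of 7815 genes tested were (0.0384% called higher). The call was lost without either Nfil CLP library (adjusted p up to 0.146). DESeq2 called 4 of 10 there, Il17rb, Rnf128, Cysltr1 and Slc7a8. The number of genes called over the whole table also differed widely between the alternatives (range given below), so the 4 are a description. Against Nfil CILP 0 of 10 were called in edgeR, where 0.141% were (804 genes had an unadjusted p under 0.05), and DESeq2 called Rnf128 (adjusted p = 0.0275). Nfil CILP replicate 2 held only 296 counts, fewer than the median of 349.5 in 12 control wells with spike-in RNA alone. Without it the count in edgeR was 0 as well, with 1 CILP library left.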

How the data were processed

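CEL-seq libraries of 100 sorted cells were deposited by the authors as 2 tables of raw read counts, 1 per batch. Per the submitters' processing notes the tools were CASAVA 1.8.2, featureCounts, limma and edgeR 3.8.2 and 3.22.0 with build mm10; the aligner and any use of molecular identifiers are not given in the sources used here. Symbols came from RefSeq for GRCm38.p6 (25275 of 27179 identifiers, 92.99%). The 70 samples gave 66 libraries after 4 technical repeats were summed into their library. A wild-type CILP library that the submitters call an outlier was left out.

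Counts were fitted with edgeR 4.0.16 (R 4.3.3; robust quasi-likelihood F test, TMM, filterByExpr with a minimum of 10 counts in enough libraries and 15 in total) on 47 libraries with a mean per group plus batch, over 10972 genes. The smallest group of that fit held 1 library, so enough counts in 1 library of any group could pass a gene. Nfil comparisons used the 31 libraries of batch 2 and 7815 genes. P-values were adjusted by Benjamini-Hochberg over all genes tested. Intervals and limits (3 counts over a group) cover counting error only. Alternatives were DESeq2 1.42.0, limma-voom 3.58.1, DESeq2 size factors, a fit without the filter, without the batch term, within each batch, on the compared groups only or with the outlier library, and fits that left out each library in turn. The fits were tested on simulated data. The 10 genes, the other lists and the rule for named genes (all 10, the 8 genes with the most similar course, members of the wider group 2 list called in ILCP against CILP, and the targeted genes) were chosen with earlier results of these data known. Tests of the 10 genes in Tcf7-/- against wild-type ILC2P are not reported, because the choice of genes used the wild-type ILC2P libraries. Replicate numbers only name libraries.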

Additional observations from a re-analysis of the deposited data

Results flagged for a closer look

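Of 14 pairs of a gene and a population (4 to 10 libraries, at least 10 counts), 5 held a value far from the rest. The test sets the gap to the nearest value against the full range and assumes a normal spread. CPM with many zeros break that assumption, so no chance rate is given. Il17rb stood at 103.2 CPM in Tcf7-/- CILP replicate 2, and at 0 in the other 3 Tcf7-/- CILP libraries. Arg1 stood at 469.4 CPM in wild-type CILP replicate 6, where the next highest library had 188 CPM. Klrg1 stood at 1880 CPM in wild-type ILC2P replicate 5, where the next had 699.8 CPM. Cysltr1 stood at 82.4 CPM in wild-type CLP replicate 2, and Areg at 48.4 CPM in wild-type CLP replicate 3. The Cysltr1 counts of that CLP library came from its first run (8 of 124779 counts) and from 1 of its 2 technical repeats (6 of 37280, against 0 of 23088 in the other).

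Outside the comparisons, the wild-type CILP library that the submitters call an outlier held 8 counts of Il17rb and 10 of Arg1 among 47089. The other 8 genes had none in it. A control well with spike-in RNA and no cells held 11 counts of Rnf128 among 6936, with 1 each of Arg1 and Areg. The remaining 11 control wells held none of the 10 genes.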

How the results depend on the processing

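The 12 called differences of the 10 genes kept their direction under every alternative that tested them. Several of the reported differences that were not called changed sign under at least 1. Among the values given in the text, Il17rb did so in Tcf7-/- CLP (log2 -2.06 in batch 2 alone) and in Id2-/- CLP (-0.262 in batch 1 alone, and -0.508 to 2.32 with a library left out, lowest without Id2-/- CLP replicate 2), each against wild type. Counts within 1.5 times of the first count given are mostly not listed. Of 10 genes, ILCP against CILP called 5, with 2 in batch 1 alone, 1 in batch 2 alone, 3 of 4 tested in a fit of the compared groups (Il17rb among them, adjusted p = 0.0456) and 3 to 5 with a library left out. CILP against CLP called 2, with 1 in batch 1 alone and 1 of 1 tested in a fit of the compared groups. CILP against α4β7+ CLP called 1, with 0 in batch 2 alone and 0 with only the compared groups. α4β7+ CLP against CLP called 0, and 0 to 1 with a library left out. Tcf7-/- against wild-type CILP called 1, with 2 in limma-voom, 0 without the batch term, 0 in batch 1 alone, 0 in batch 2 alone, 0 with only the compared groups, and 0 to 1 with a library left out. Id2-/- against wild-type CILP called 0, with 2 in DESeq2, 2 in limma-voom, 1 without a filter, 2 in batch 1 alone and 1 with only the compared groups. Tcf7-/- ILC2P against Tcf7-/- CILP called 2, with 3 in limma-voom, 1 in DESeq2, 1 with DESeq2 size factors, 0 in batch 2 alone, 0 with only the compared groups, and 0 to 1 with a library left out. Nfil ILC2P against Nfil CILP called 0, with 1 in DESeq2, 1 in limma-voom and 1 with only the compared groups. Nfil ILC2P against Nfil CLP called 1, with 4 in DESeq2, 4 in limma-voom, 0 with only the compared groups, and 0 to 1 with a library left out. Fits within a batch or of the compared groups hold fewer libraries or genes; the cause of the other differences was not tested.

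Over all genes, and apart from fits that left out a library, the alternatives called 8 to 173 in ILCP against CILP (41 in edgeR), 105 to 721 in CILP against CLP (473), 31 to 833 in CILP against α4β7+ CLP (258) and 0 to 33 in α4β7+ CLP against CLP (5). They called 0 to 96 in Tcf7-/- CILP (55), 0 to 18 in Tcf7-/- CLP (0), 9 to 530 in Id2-/- CILP (10), 1 to 25 in Id2-/- CLP (4) and 2 to 319 in Tcf7-/- ILC2P (282), each against wild type. They called 0 to 50 in Tcf7-/- ILC2P against Tcf7-/- CILP (5), 6 to 143 in Nfil ILC2P against Nfil CILP (11) and 1 to 171 against Nfil CLP (12). DESeq2 size factors moved the median over all genes, on the log2 scale, by -0.272 in Tcf7-/- ILC2P, 0.261 in Tcf7-/- CILP, -0.22 in Tcf7-/- ILC2P against CILP and 0.685 in Nfil ILC2P against CLP, where the share of calls that were higher became 57.1% (25% with TMM). No paired analysis was possible because replicate numbers follow accession order and tie no library of 1 group to a library of another. At 19322 to 80873 counts, wild-type ILC2P libraries limit what can be seen of Il13, Il5 and Areg.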

Other observations

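Technical repeats of wild-type CILP replicate 1 differed for the early genes. Il17rb had 25 counts of 169683 in the first run, 0 of 85470 in a repeat and 14 of 77362 in the other. Arg1 had 22, 0 and 9 counts in the same runs.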
